A study of Mus musculus with 24 samples.

Results

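Expression of 4 hematopoietic growth factor genes was followed in 3T3 mouse embryonic fibroblasts (MEFs), an immortalized mouse fibroblast line, by RNA-seq. The genes were *Csf1*, *Csf2* and *Csf3*, which encode the colony-stimulating factors M-CSF, GM-CSF and G-CSF, and *Kitl*, which encodes stem cell factor. They were taken by name and were 4 of 55471 genes in the count tables and 4 of 17522 genes that passed the filter on low counts. *Csf2* passed that filter through its counts in IL-1β-treated *Lkb1*-/- and A1 MEFs, so the filter in part fixed its direction against groups with few counts, and its FDRs against such groups are given as a description.

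The 24 libraries formed 8 groups of 3, which crossed 4 genotypes with 2 treatments. There were wild-type MEFs, MEFs without LKB1 (*Lkb1*-/-), and clones A1 and A2, which lack both LKB1 and CRTC2 (*Lkb1*-/-/*Crtc2*-/-). Each was sampled without treatment and at 6 h after IL-1β was given, for which the paper's methods state a dose of 0.1 ng/mL in MEFs. LKB1 is the kinase encoded by *Stk11*, and CRTC2 is a coactivator of the transcription factor CREB. Wild-type and *Lkb1*-/- MEFs were existing lines, so other differences between the lines cannot be told apart from the loss of LKB1. Both clones also lack LKB1 and were made from *Lkb1*-/- MEFs by CRISPR-Cas9 editing, so that each is 1 clone of an edited line and what is particular to a clone cannot be told apart from the loss of CRTC2. The labels number the libraries of a group 1 to 3 but do not say that they came from separate cultures, so p-values measure the spread between libraries, which may be technical. Clones A1 and A2 were compared with the same *Lkb1*-/- libraries, and comparisons with wild-type MEFs shared the wild-type libraries.

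Colony-stimulating factors are secreted proteins that keep myeloid cells alive and drive their division and maturation. M-CSF acts on macrophages and their precursors through the receptor CSF1R, GM-CSF on granulocytes and macrophages through a receptor of an alpha chain and a shared beta chain, and G-CSF on neutrophils and their precursors through CSF3R. Stem cell factor exists in a membrane-bound and a shed form and acts through the receptor KIT on hematopoietic stem cells, mast cells, germ cells and melanocytes. Fibroblasts and other stromal cells are known sources of these factors, and IL-1 is a classical inducer of GM-CSF and G-CSF in such cells.

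*Csf1* lies on chromosome 3 (107741048 to 107760469, minus strand), *Csf2* on chromosome 11 (54247271 to 54249667, minus strand), *Csf3* on chromosome 11 (98701263 to 98703629, plus strand) and *Kitl* on chromosome 10 (100015630 to 100100416, plus strand) of build GRCm38. The sequence before the start of transcription is shown for the genes that RefSeq's promoter table (GRCm38.p6) holds, because NF-κB, the factor that IL-1β activates, and CREB, the partner of CRTC2, act at such sites. It held 3 of the 4 genes, and *Csf3* was not among them. The 250 bases before the start were searched on both strands for the CREB site TGACGTCA, its core TGACG (which the full site contains), the AP-1 site TGANTCA, the NF-κB consensus and TATAAA. Capitals mark matches. For *Kitl* only the last 30 bases before the RefSeq start are given, since the gene start of the GENCODE annotation lies 191 bases before that start.
Csf1, chr3:107760470-107760719, minus strand: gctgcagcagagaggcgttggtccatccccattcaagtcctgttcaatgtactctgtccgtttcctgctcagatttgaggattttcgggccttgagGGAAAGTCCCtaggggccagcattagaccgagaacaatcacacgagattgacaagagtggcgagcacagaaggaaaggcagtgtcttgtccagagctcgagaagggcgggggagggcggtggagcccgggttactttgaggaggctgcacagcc
Csf2, chr11:54249900-54250149, minus strand: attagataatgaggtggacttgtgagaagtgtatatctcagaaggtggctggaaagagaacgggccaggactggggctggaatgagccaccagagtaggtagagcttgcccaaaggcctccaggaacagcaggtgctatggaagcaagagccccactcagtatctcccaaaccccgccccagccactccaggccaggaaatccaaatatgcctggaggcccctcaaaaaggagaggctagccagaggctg
Kitl, chr10:100015791-100015820, plus strand: agctgTATAAAaagcgctggcggcgcagca

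In *Csf1*, 1 match to the NF-κB consensus began 154 bases before the start, and 3.9% of the 32851 promoters of the table held such a match. In *Kitl*, TATAAA began 25 bases before the start, a sequence that 12.4% of promoters held within 250 bases. No match was present in the window of *Csf2*, whose RefSeq start lies 232 bases before the GENCODE start. The bases between these starts were not searched, so a site just before the GENCODE start would not be seen. The full CREB site, present in 1.55% of promoters, its core, in 17.8%, and the AP-1 site, in 6.75%, were in none of the 3 windows. A match or its absence in these letters describes the sequence alone.

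Between 38842901 and 48594394 read pairs per library were counted on genes. Levels are in CPM, the counts per 1000000 counts on genes after scaling by TMM, with the SD over 3 libraries. Without IL-1β *Stk11* fell from 86.0 ± 1.68 CPM in the wild-type line to 17.3 ± 1.24 CPM in the *Lkb1*-/- line, in the direction of the labels. *Crtc2* was at 81.1 ± 1.80 CPM in untreated *Lkb1*-/- MEFs, 42.9 ± 2.11 CPM in clone A1 and 49.8 ± 0.864 CPM in clone A2, and these counts over the whole gene do not measure the edit itself. The 10 fibroblast markers summed to 5716 to 9935 CPM per library, and 7 or 8 of them were over 1 CPM in each group, but *Thy1* and *Lum* reached at most 3 and 10 counts. Single markers moved in opposite directions with genotype: from untreated wild-type to *Lkb1*-/- MEFs *Pdgfra* went from 4.58 to 342 CPM, *Dcn* from 0.411 to 218 CPM and *Col1a2* from 780.1 to 63.0 CPM. The part of these shifts in the values of the 4 genes was not tested. Libraries numbered 1 stood apart from those numbered 2 and 3 in all 8 groups, and the libraries of 1 number varied together, so values with the replicate number as a block are given where they change a call. No called value of the 4 genes changed direction with the block.

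The 4 genes were expressed at very different levels. Per kilobase of exon, untreated wild-type MEFs had 36.2 ± 3.22 CPM of *Csf1* and 38.4 ± 3.57 CPM of *Kitl*, but 0.243 ± 0.0759 CPM of *Csf3* and no count of *Csf2* in any of the 3 libraries, which allows up to 3 counts over the group. After IL-1β, *Csf3* reached 8.18 ± 1.74 CPM per kilobase in *Lkb1*-/- MEFs, its highest group mean, and *Csf2* reached 1.21 ± 0.553 CPM per kilobase in clone A1. Thus *Csf1* and *Kitl* were abundant with or without IL-1β, *Csf2* was at the detection limit without IL-1β, and *Csf3* was low, with 12 to 43 counts over an untreated group. In bulk libraries such as these, fewer cells that express a gene and less RNA per cell cannot be told apart.

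**Figure D1:**
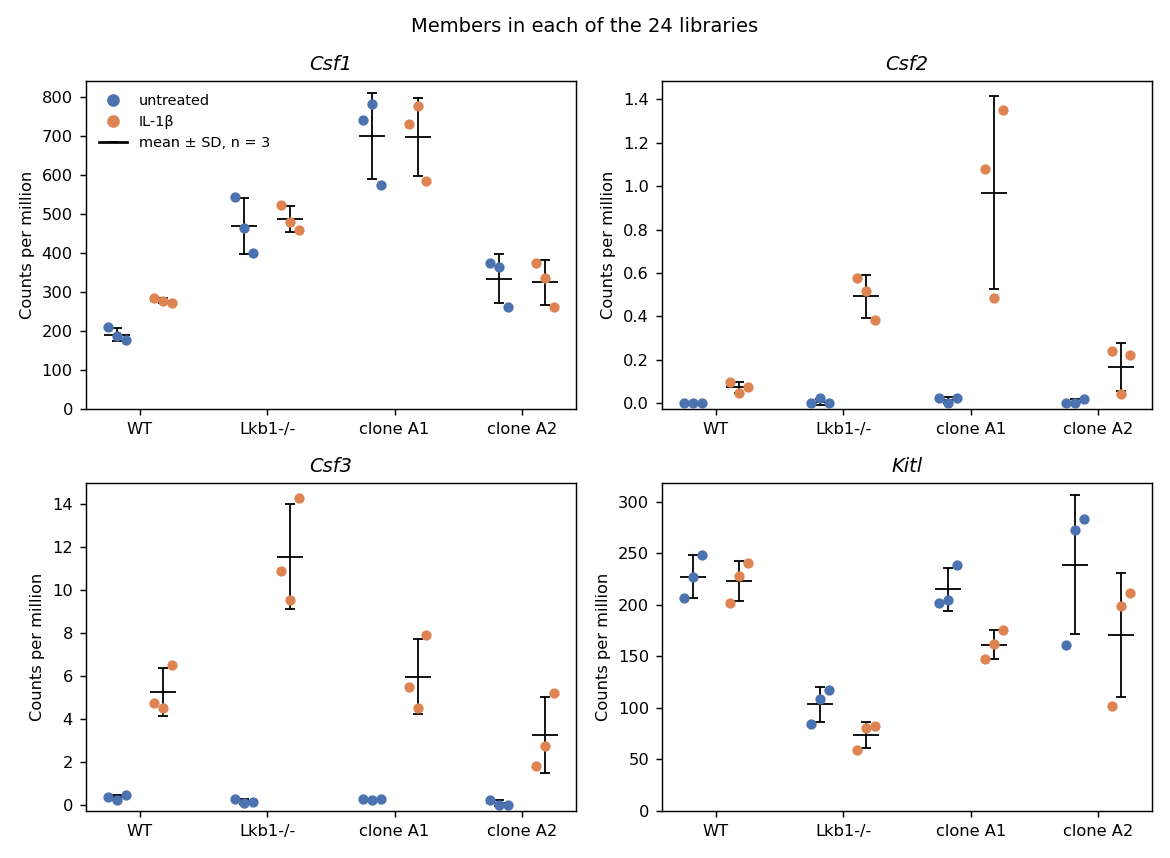
CPM of each gene (vertical axis, linear, each gene on its own scale) in each of the 24 libraries, by genotype and treatment, with the mean and SD of each group of 3. *Csf1* was lowest in untreated wild-type MEFs (177 to 210 CPM), *Csf2* and *Csf3* were near 0 without IL-1β, and *Kitl* was lowest in *Lkb1*-/- MEFs (58.9 to 117 CPM).

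*Csf1* had its lowest level in untreated wild-type MEFs, at 210, 187 and 177 CPM in libraries 1, 2 and 3. *Lkb1*-/- MEFs held 545, 463 and 400.1 CPM untreated and 524, 479 and 459 CPM after IL-1β. Clone A1 was the highest genotype, with 740.5, 783 and 576 CPM untreated and 731, 777 and 585 CPM after IL-1β. Clone A2 lay between wild-type and *Lkb1*-/- MEFs, at 376, 365 and 262 CPM untreated and 376, 336 and 263 CPM after IL-1β. In the order of group means, both A1 groups overlapped each other and stood above both *Lkb1*-/- groups, which overlapped each other and stood above untreated A2. At the lower end, both A2 groups overlapped each other, and A2 after IL-1β overlapped IL-1β-treated wild-type MEFs (285, 277 and 272 CPM). Library 3 was the lowest of its group for *Csf1* in 4 of 4 untreated and 4 of 4 IL-1β groups.

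*Kitl* stood at 206, 227 and 248 CPM in untreated wild-type MEFs and at 202, 228 and 240.2 CPM after IL-1β. *Lkb1*-/- MEFs had the lowest levels, 84.3, 109 and 117 CPM untreated and 58.9, 80.0 and 82.0 CPM after IL-1β, below every library of the other genotypes under the same treatment. Clone A1 held 202, 204 and 239 CPM untreated and 147, 162 and 175 CPM after IL-1β, and clone A2 held 161, 272 and 283 CPM untreated and 102, 199 and 211 CPM after IL-1β. In the order of means the 6 other groups each overlapped the next, and the *Lkb1*-/- groups did not overlap each other. Untreated *Lkb1*-/- MEFs overlapped A2 after IL-1β, whose library 1 was at 102 CPM. For *Kitl* it was library 1 that was lowest, and library 3 highest, in 4 of 4 untreated and 4 of 4 IL-1β groups.

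*Csf2* was nearly silent in untreated cells, with 0, 0 and 0 counts in wild-type MEFs, 0, 1 and 0 in *Lkb1*-/- MEFs, 1, 0 and 1 in clone A1 and 0, 0 and 1 in clone A2. After IL-1β the counts were 4, 2 and 3 in wild-type MEFs, 24, 25 and 16 in *Lkb1*-/- MEFs, 44, 21 and 54 in clone A1 and 11, 2 and 9 in clone A2. The groups after IL-1β fell into 2 tiers, of which A1 and *Lkb1*-/- MEFs formed the upper and overlapped each other, and A2 and wild-type MEFs formed the lower and overlapped each other. *Csf3* counts in untreated cells were 16, 10 and 17 in wild-type MEFs, 12, 3 and 6 in *Lkb1*-/- MEFs, 11, 9 and 11 in clone A1 and 12, 0 and 0 in clone A2. After IL-1β they were 191, 192 and 252 in wild-type MEFs, 453, 458 and 595 in *Lkb1*-/- MEFs, 224, 195 and 316 in clone A1 and 82, 129 and 213 in clone A2. *Lkb1*-/- MEFs were highest for *Csf3* and overlapped no other group, while the ranges of A1 and wild-type MEFs, and of wild-type MEFs and A2, overlapped in CPM.

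The comparison of *Lkb1*-/- with wild-type MEFs asked what differed between the line without LKB1 and the wild-type line, whatever else separates them. Untreated *Lkb1*-/- MEFs had 2.45-fold more *Csf1* (log2 fold change 1.30 ± 0.15, SE, FDR = 2.9e-07) and 2.20-fold less *Kitl* (log2 fold change -1.14 ± 0.22, FDR = 0.00014), and the libraries of the 2 groups did not overlap for either gene. The FDR was computed over all genes tested by the Benjamini-Hochberg method from p-values of the edgeR quasi-likelihood fit, and genes under 0.05 were called. *Csf3* was at 0.161 ± 0.102 CPM in *Lkb1*-/- against 0.344 ± 0.107 CPM in wild-type MEFs and was not called (log2 fold change -1.06 ± 0.69, FDR = 0.21, and called in 1 of 15 alternatives, without a filter on low counts, FDR = 0.016). *Csf2* is given no fold, since both groups lay at or under 3 counts. These were 2 of 4 genes called, where 55.9% of all genes tested were called in this comparison, so the share among the 4 genes was near that of the whole table.

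After IL-1β all 4 genes were called, where 57.4% of all genes were. *Csf2* passed the filter through *Lkb1*-/- and A1 counts, so its call is a description and nothing is read from the count of 4. *Csf2*, for GM-CSF, showed the largest difference, 65 counts over the *Lkb1*-/- group against 9 over the wild-type group, a ratio of 6.70 after scaling (95% exact interval 3.32 to 15.3, which covers counting error only, FDR = 0.00077). *Csf3*, for G-CSF, was 2.21-fold higher (log2 fold change 1.14 ± 0.39, FDR = 0.016) and *Csf1* was 1.75-fold higher (0.81 ± 0.15, FDR = 0.0001). *Kitl* was 3.03-fold lower (log2 fold change -1.60 ± 0.22, FDR = 2.6e-06). For each of the 4 genes the 3 *Lkb1*-/- libraries lay outside the range of the 3 wild-type libraries. The *Csf3* call was lost without wild-type library 1 (FDR = 0.053), wild-type library 2 (FDR = 0.062) or *Lkb1*-/- library 3 (FDR = 0.077), while its log2 fold change stayed between 0.94 and 1.30 over the 15 alternatives run, of which 12 called it.

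**Figure D2:**
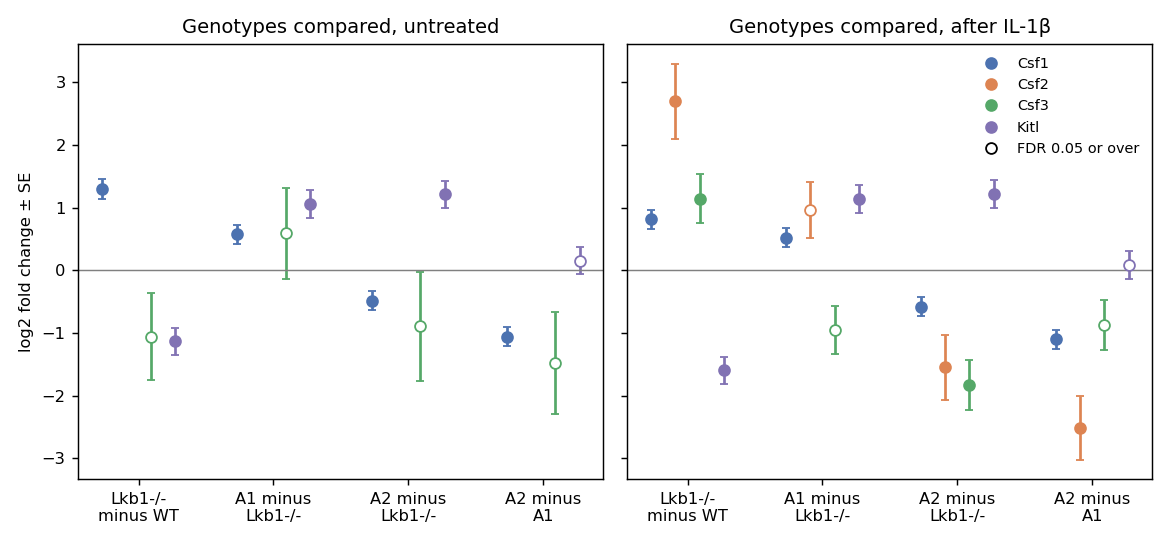
Log2 fold change with its SE for each gene in 4 comparisons of genotypes, untreated (left) and after IL-1β (right), from the fit over 24 libraries. Filled points were called at FDR under 0.05; *Csf2* is left out in untreated cells. *Kitl* was lower in *Lkb1*-/- than in wild-type MEFs and higher in both clones than in *Lkb1*-/- MEFs, whereas *Csf1* was higher in clone A1 and lower in clone A2.

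The comparison of each clone with *Lkb1*-/- MEFs asked what went with the added loss of CRTC2 together with whatever is particular to that clone. *Kitl* was higher in both clones: in untreated cells by 2.08-fold in A1 (log2 fold change 1.06 ± 0.22, FDR = 0.00069) and 2.31-fold in A2 (1.21 ± 0.22, FDR = 0.00024). After IL-1β it was higher by 2.19-fold in A1 (1.13 ± 0.22, FDR = 0.00036) and 2.32-fold in A2 (1.21 ± 0.22, FDR = 0.00022). *Csf1* went in opposite directions, up 1.49-fold in untreated A1 (log2 fold change 0.58 ± 0.15, FDR = 0.0048) and down 1.4-fold in untreated A2 (-0.49 ± 0.15, FDR = 0.017). In untreated cells 2 of 4 genes were called in each clone, where 35.3% of all genes were called in A1 and 32.3% in A2, and *Csf3* was called in neither (0.59 ± 0.73, FDR = 0.58 in A1, and -0.89 ± 0.87, FDR = 0.48 in A2).

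After IL-1β, *Csf3* was 3.56-fold lower in clone A2 than in *Lkb1*-/- MEFs (log2 fold change -1.83 ± 0.40, FDR = 0.0012). In clone A1 it was 5.96 ± 1.75 CPM against 11.6 ± 2.45 CPM in *Lkb1*-/- MEFs (log2 fold change -0.96 ± 0.38), with no overlap of the libraries, and was not called (FDR = 0.058, and 0.002 with the block). It was called in 7 of 15 alternatives, with log2 fold changes from -1.19 to -0.78. *Csf2* differed between the clones in its position relative to *Lkb1*-/- MEFs. In A2 its scaled counts were 0.334 times those of *Lkb1*-/- MEFs (95% exact interval 0.196 to 0.549, FDR = 0.028), and in A1 they were 1.94 times as high (1.42 to 2.66 for counting error alone, FDR = 0.1, and 0.064 with the block), the 3 libraries of A1 overlapping those of *Lkb1*-/- MEFs.

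*Csf1* after IL-1β was again 1.43-fold higher in A1 (log2 fold change 0.52 ± 0.15, FDR = 0.01) and 1.5-fold lower in A2 (-0.58 ± 0.15, FDR = 0.0049). Of the 4 genes, 2 were called in A1 after IL-1β, where 36.7% of all genes were, and 4 in A2, where 32.8% of all genes were. The count in A2 includes *Csf2*, whose direction the filter in part fixed, so nothing is read from it. Several of the calls against *Lkb1*-/- MEFs rested on single libraries. The *Csf1* call in untreated A2 held in 11 of 15 alternatives and was lost without *Lkb1*-/- library 1 or A2 library 3 (FDR = 0.16 each), with all libraries numbered 1 left out (FDR = 0.05) and in a fit of these groups alone (FDR = 0.065). That in A1 after IL-1β held in 13 of 15 and was lost without A1 library 2 (FDR = 0.055) or *Lkb1*-/- library 3 (FDR = 0.051). The *Csf2* call in A2 was lost without A2 library 2 (ratio on the log2 scale -1.06, FDR = 0.14) or without *Lkb1*-/- library 1 (FDR = 0.076) or 2 (FDR = 0.069). It was also lost with all libraries numbered 1 left out (FDR = 0.067) and in a fit of these groups alone (FDR = 0.065). *Csf2* became called in A1 without A1 library 2 (log2 fold change 1.29, FDR = 0.038). Without A1 library 3, *Csf3* was called in A1 after IL-1β (-1.19, FDR = 0.047), and without A2 library 1, which held all 12 counts of its group, *Csf3* was called in untreated A2 (FDR = 0.012).

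The clones were also compared with each other. *Csf1* was 2.09-fold lower in A2 than in A1 in untreated cells (log2 fold change -1.07 ± 0.15, FDR = 1.5e-05) and 2.15-fold lower after IL-1β (-1.10 ± 0.15, FDR = 1.2e-05). *Csf2* after IL-1β was at 0.172 times the A1 level in A2 (95% exact interval 0.104 to 0.273, FDR = 0.00077). *Kitl* differed by log2 0.15 ± 0.22 untreated and 0.08 ± 0.22 after IL-1β, and was not called (FDR = 0.65 and 0.83). It was called in both with all libraries numbered 1 left out (0.32, FDR = 0.0026, and 0.28, FDR = 0.0069). For *Csf3* after IL-1β the difference was -0.88 ± 0.40 with FDR = 0.1 and 0.0067 with the block, and the libraries overlapped. Of the 4 genes, 1 was called untreated, where 32.5% of all genes were, and 2 after IL-1β, where 30.7% were. The count after IL-1β includes *Csf2*, which passed the filter in part through A1, so nothing is read from it. *Csf3* was called in 4 of 15 alternatives in each treatment, among them in untreated cells without A2 library 1 (FDR = 0.0031) and after IL-1β without A2 library 3 (log2 fold change -1.39, FDR = 0.019).

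Set against wild-type MEFs, untreated clone A1 was called for 1 of the 4 genes, where 55.4% of all genes were, and untreated clone A2 for 2, where 60.6% were. *Csf1* was 3.66-fold higher in A1 (log2 fold change 1.87 ± 0.16, FDR = 1.4e-09) and 1.75-fold higher in A2 (0.81 ± 0.15, FDR = 9.7e-05). *Kitl* was not called in either clone, with log2 fold changes of -0.08 ± 0.22 in A1 (FDR = 0.78) and 0.07 ± 0.22 in A2 (FDR = 0.8, and 0.016 with all libraries numbered 1 left out). *Csf3* was lower in A2 (log2 fold change -1.95 ± 0.77, FDR = 0.033), although A2 library 1 overlapped the wild-type libraries. That call held in 8 of the 15 alternatives and was lost without wild-type library 1 or 3 or A2 library 2 or 3 (FDR = 0.068, 0.087, 0.11 and 0.11), and without A2 library 1 the log2 fold change was -6.91, a fitted value against 0 counts that depends on the prior count and is no bound.

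After IL-1β, clone A1 was called for 2 of 4 genes against wild-type MEFs, where 56.9% of all genes were called. The count includes *Csf2*, which passed the filter through A1 and *Lkb1*-/- counts, so nothing is read from it. *Csf1* was 2.51-fold higher (log2 fold change 1.33 ± 0.15, FDR = 2e-07), and *Csf2* had 13.0 times the scaled counts (95% exact interval 6.61 to 29.1, FDR = 2.2e-05). *Csf3* differed by log2 0.19 ± 0.39 (FDR = 0.71), and *Kitl* by -0.47 ± 0.22 (FDR = 0.072, 0.002 with the block, and called in 4 of 15 alternatives). In clone A2 none of the 4 genes was called, where 60.8% of all genes were called. With the block, 3 of them were called in A2, where 68.5% of all genes were, so this share too was near that of the whole table. They were *Csf1* (log2 fold change 0.21 ± 0.08, FDR = 0.026), *Csf3* (-0.73 ± 0.26, FDR = 0.017) and *Kitl* (-0.43 ± 0.12, FDR = 0.0038). *Csf2* in A2 had 2.24 times the wild-type counts, with an interval from 0.991 to 5.52 (FDR = 0.16). Leaving out A2 library 3 made the same 3 genes called without a block (FDR = 0.046, 0.023 and 0.047), and leaving out A2 library 2 made *Csf2* called (FDR = 0.038). Over 15 alternatives *Csf1* and *Csf3* were called in 3 each and *Kitl* in 4.

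*Csf3* was called higher after IL-1β in each of the 4 genotypes, and *Csf2* had more counts after IL-1β in each. *Csf3* rose by log2 3.93 ± 0.50 in wild-type MEFs (15.2-fold, FDR = 3.9e-05), 6.13 ± 0.55 in *Lkb1*-/- MEFs (69.9-fold, FDR = 2e-07), 4.58 ± 0.52 in clone A1 (24-fold, FDR = 1.2e-05) and 5.19 ± 0.61 in clone A2 (36.5-fold, FDR = 7.8e-06). The fold in *Lkb1*-/- MEFs rested on 12, 3 and 6 untreated counts. Its pairs gave 40, 137 and 99.9 times the untreated level, and over 15 alternatives the log2 value ranged from 5.49, with unstranded counts, to 6.77, without the libraries numbered 1. The fold in A2 rested on A2 library 1, which held all the untreated counts, and without it the fitted value, now against 0 counts, was 10.1 on the log2 scale and is no bound. No IL-1β library overlapped an untreated library of its genotype for either gene. *Csf3* lay above every untreated library of its genotype in 12 of 12 IL-1β libraries, and untreated libraries held at most 17 counts.

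For *Csf2*, 65 counts in IL-1β-treated *Lkb1*-/- MEFs stood against 1 untreated, a ratio of 63.9 after scaling with a counting interval of 11.1 to 2562. Clone A1 had 119 counts against 2 (60.4, interval 16.4 to 505), and clone A2 had 22 against 1 (22.8, interval 3.69 to 942, FDR = 0.016). Wild-type MEFs had 9 counts against 0, which is at least 3.11-fold higher when 3 counts are allowed over the untreated group. No test is given for *Lkb1*-/- and A1 MEFs, whose IL-1β counts carried the gene past the filter. The wild-type change was not called (FDR = 0.13, and 0.04 with the block) and was called in 2 of 14 alternatives. The A2 call was lost without IL-1β-treated A2 library 1 (FDR = 0.064) or untreated A2 library 2 (FDR = 0.073), and with all libraries numbered 1 left out (FDR = 0.16).

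*Csf1* and *Kitl* moved little with IL-1β. In wild-type MEFs *Csf1* was at 191 ± 17.0 CPM untreated and 278 ± 6.79 CPM after IL-1β with no overlap (log2 fold change 0.54 ± 0.15). This was not called (FDR = 0.072, and 7.3e-05 with the block), and 4 of 15 alternatives called it. Its level was 1.36, 1.48 and 1.54 times the untreated level in pairs 1, 2 and 3. In the other genotypes the log2 fold change of *Csf1* lay at 0.05 ± 0.15 (*Lkb1*-/-), -0.0048 ± 0.15 (A1) and -0.04 ± 0.15 (A2), none called with or without the block. *Kitl* was lower after IL-1β in 3 of 3 pairs of *Lkb1*-/- MEFs (0.698, 0.734 and 0.702 times the untreated level), of clone A1 (0.729, 0.794 and 0.733 times) and of clone A2 (0.632, 0.732 and 0.747 times). These changes, of -0.49 ± 0.22, -0.41 ± 0.22 and -0.48 ± 0.22 on the log2 scale, were not called (FDR = 0.29, 0.53 and 0.24), and all were called with the block (FDR = 0.0091, 0.034 and 0.006), and in 3, 4 and 4 of 15 alternatives. In A2 it was also called without untreated library 1 (-0.68, FDR = 0.033). In wild-type MEFs *Kitl* was at 0.978, 1.00 and 0.967 times the untreated level (log2 fold change -0.03 ± 0.22, FDR = 1.0).

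Among the 4 genes IL-1β changed 1 by the test in wild-type MEFs, where 2.26% of all genes were called, and 2 in each of *Lkb1*-/- MEFs, clone A1 and clone A2, where 4.74%, 1.99% and 5.68% of all genes were called. One of the pair in each was *Csf2*, which passed the filter only through IL-1β groups, so nothing is read from these counts. With the block 3 of 4 genes were called in each genotype, where 9.3%, 14.8%, 9.61% and 17.9% of all genes were called in wild-type, *Lkb1*-/-, A1 and A2 MEFs. These were *Csf2* and *Csf3* in all of them, *Csf1* as the third in wild-type MEFs and *Kitl* as the third in the other genotypes. The filter in part fixed the *Csf2* calls with the block too, so nothing is read from these counts either.

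**Figure D3:**
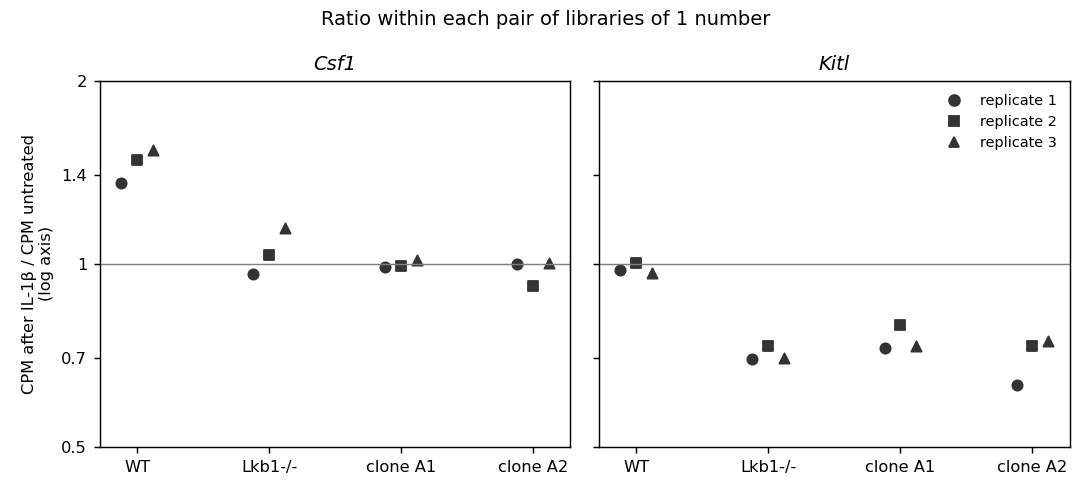
Ratio of CPM after IL-1β to CPM untreated (vertical axis, log scale) for *Csf1* and *Kitl* in each pair of libraries with the same number, by genotype; the line marks a ratio of 1. *Csf1* lay above 1 in the 3 wild-type pairs (1.36 to 1.54) and *Kitl* below 1 in the 9 pairs of the other genotypes (0.632 to 0.794).

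Whether the responses themselves differed between genotypes was tested as a difference of log2 fold changes. Between *Lkb1*-/- and wild-type MEFs none of the 4 genes was called, where 0.245% of all genes were. *Csf3* had a response 2.20 ± 0.79 larger on the log2 scale in *Lkb1*-/- MEFs (FDR = 0.6, and 0.094 with the block), and its FDR lay between 3.5e-05, without a filter on low counts, and 1.0 over 21 alternatives. The response of *Csf1* differed by -0.49 ± 0.21 (FDR = 0.82), and with the block it was called (-0.48 ± 0.11, FDR = 0.025). *Kitl* differed by -0.46 ± 0.31 (FDR = 1.0, and 0.26 with the block). None of the 4 genes was called between A1 and *Lkb1*-/- MEFs, where 0.0285% of all genes were, or between A2 and *Lkb1*-/- MEFs, where 0.0% were (edgeR's test called 0 of 17522 genes, 388 had an unadjusted p under 0.05, and DESeq2 called 12). The *Csf3* response was -1.55 ± 0.83 in A1 and -0.94 ± 1.03 in A2 relative to *Lkb1*-/- MEFs (FDR = 1.0 each), and that of A2 was fitted at 3.99 without untreated A2 library 1, again against 0 counts. A response called in some genotypes and not in others, such as that of *Csf2*, is thus not shown to differ between them.

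The receptors of these factors were nearly absent from wild-type MEFs. *Csf3r*, for the G-CSF receptor, and *Kit*, for the receptor of stem cell factor, reached at most 1 count in any of the 24 libraries. *Csf1r*, for the M-CSF receptor, held 1 to 6 counts in the wild-type libraries and 45 to 114 counts in every library of the other genotypes. *Csf2ra*, for the alpha chain of the GM-CSF receptor, held at most 1 count in wild-type libraries and 11 to 23 counts in *Lkb1*-/- libraries. In untreated A1 and A2 it held 2 to 6 and 0 to 4 counts. *Csf1r*, *Csf2ra*, *Csf2rb* and *Csf2rb2* passed the filter on low counts only through the genotypes in which they were high, so no test against wild-type MEFs is given for them.

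*Csf2rb*, for the shared beta chain, held at most 1 count in wild-type libraries, and 161 to 265 counts in untreated *Lkb1*-/- libraries. Its level fell to 54 to 120 counts in *Lkb1*-/- MEFs after IL-1β (log2 fold change -1.22 ± 0.26, FDR = 0.0076). In clone A1 it was lower than in *Lkb1*-/- MEFs, at 14 to 16 counts untreated (log2 fold change -3.75 ± 0.31, FDR = 3.9e-08), and in clone A2 it held 120 to 168 counts untreated and was not called (-0.66 ± 0.26, FDR = 0.059). *Csf2rb2*, its close paralog, held no count in wild-type libraries, and in untreated cells 76 to 115 counts in *Lkb1*-/- MEFs, 5 to 12 in A1 and 37 to 61 in A2 (log2 fold change of A2 against *Lkb1*-/- MEFs -1.01 ± 0.28, FDR = 0.01). After IL-1β neither gene was called between A2 and *Lkb1*-/- MEFs (-0.03 ± 0.27, FDR = 0.94 for *Csf2rb*, and 0.06 ± 0.29, FDR = 0.91 for *Csf2rb2*). Counts of the pair are uncertain, since reads shared by the pair may be counted for neither.

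**Figure D4:**
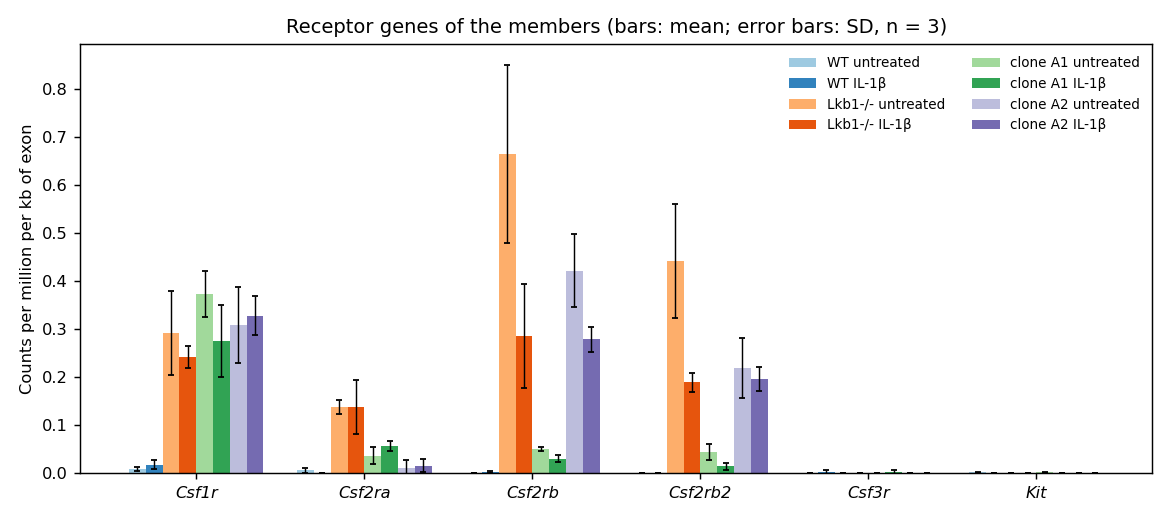
Mean level of 6 receptor genes in the 8 groups, in CPM per kilobase of exon (vertical axis, linear), with the SD over 3 libraries as error bars. *Csf1r*, *Csf2rb* and *Csf2rb2* stood at or near 0 in wild-type MEFs and higher in *Lkb1*-/- MEFs, and *Csf3r* and *Kit* stood at or near 0 in all groups.

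Macrophage markers bear on *Csf1r*, which is 1 of the 9 on the list. The summed level of the list was 2.51 to 5.31 CPM in wild-type libraries and 4.36 to 9.05 CPM in the others. *Cd68*, at a mean of 3.28 to 6.11 CPM over the groups, made up most of it, while *Ptprc*, *Adgre1* and *Tyrobp* reached at most 1 count in any library. *Lyz2* reached 20 counts in a library and a mean of 0.363 CPM in untreated A1, against 0.0087 CPM in untreated wild-type MEFs, and *Spi1* reached 7 counts. Their part in the level of *Csf1r* was not tested. Of the 4 mast cell markers 3 were at 0 in all 24 libraries.

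The wider list of 22 genes held those receptors, 8 other growth factors, 5 of their receptors and 3 proteases that shed membrane-bound proteins. Of these, 15 passed the filter, and *Csf3r* and *Kit* were among the 7 that did not. In untreated *Lkb1*-/- against wild-type MEFs 9 were higher and 2 lower, where 30.1% of all genes were higher and 25.8% lower. Several passed the filter only through the genotypes in which they were high, so the filter in part fixed this direction. *Il7*, a lymphoid growth factor, rose from 0.445 ± 0.107 to 10.3 ± 1.07 CPM (log2 fold change 4.53 ± 0.19, FDR = 2.2e-14). *Epor*, for the erythropoietin receptor, held 6 to 16 counts in wild-type and 88 to 122 in *Lkb1*-/- libraries, and *Mmp9*, for a protease known to release stem cell factor, 6 to 10 and 241 to 264 counts. *Adam17*, for the protease known to shed M-CSF and stem cell factor, was abundant in all groups (means of 89.6 to 135 CPM) and was not called (-0.10 ± 0.12, FDR = 0.51). In untreated A2 against wild-type MEFs *Adam17* was called lower (-0.32 ± 0.12, FDR = 0.02). *Adam10*, for the remaining protease of the list, was called lower in untreated *Lkb1*-/- MEFs, at 258 ± 17.1 against 368 ± 35.0 CPM (-0.51 ± 0.11, FDR = 0.00057). After IL-1β *Adam10* was lower as well (-0.57 ± 0.11, FDR = 0.00018).

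In clone A1 against untreated *Lkb1*-/- MEFs 3 of the 15 tested genes of the list were higher and 3 lower (median log2 fold change 0.13, beside 0.02 over all genes), where 35.3% of all genes were called. In clone A2 it was also 3 and 3 (median 0.08, beside 0.02), where 32.3% were. *Flt3*, for the receptor of FLT3 ligand, was higher in both clones, with 8 to 14 counts in *Lkb1*-/- libraries, 15 to 38 in A1 and 19 to 36 in A2 (log2 fold change 1.12 ± 0.36 and 1.13 ± 0.36, FDR = 0.019 each). *Il15*, for a growth factor of lymphocytes, was called higher in A1 (1.58 ± 0.41, FDR = 0.0045) and stood at 0.18 ± 0.44 in A2 (FDR = 0.8). With IL-1β 2 of the 15 rose and none fell in wild-type MEFs, 2 rose and 2 fell in *Lkb1*-/- MEFs, 1 rose in clone A1 and 2 rose in clone A2, where 2.26%, 4.74%, 1.99% and 5.68% of all genes were called. *Il7* rose in wild-type MEFs (log2 fold change 1.15 ± 0.22, FDR = 0.0041), and its response in *Lkb1*-/- MEFs differed from that by -1.28 ± 0.26 (FDR = 0.039), the 1 difference of responses called on the list. *Flt3* rose in *Lkb1*-/- MEFs (1.52 ± 0.35, FDR = 0.011) and in A2 (1.43 ± 0.31, FDR = 0.0054), and the 2 that fell in *Lkb1*-/- MEFs were *Csf2rb* and *Csf2rb2*. *Mmp9* was among those raised in each genotype, by 1.94 ± 0.42 in wild-type (FDR = 0.012), 1.90 ± 0.21 in *Lkb1*-/- (FDR = 4.2e-06), 0.91 ± 0.21 in A1 (FDR = 0.022) and 1.5 ± 0.20 in A2 (FDR = 5.5e-05) on the log2 scale.

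*Kitl* shares chromosome 10 with *Stk11*, and genes of that chromosome moved with it. In untreated *Lkb1*-/- against wild-type MEFs the median log2 fold change of the other 813 tested genes of the chromosome was -0.44, against -1.14 for *Kitl*. Of the 8 tested genes whose starts lie within 1 Mb of that of *Kitl*, 5 were lower and 2 higher, with a median of -0.60 and a lowest value of -1.19, that of *Tmtc3*. In the clones against untreated *Lkb1*-/- MEFs the chromosome's median was 0.39 in A1 and 0.27 in A2, and that of the 8 neighbors 0.30 and 0.19, beside 1.06 and 1.21 for *Kitl*. Such a shift was not particular to chromosome 10, since the median of chromosome 11 was 0.29 in A1 and 0.34 in A2. Over all genes the medians were 0.018 and 0.024. The part of these shifts in the values of *Kitl* was not tested. For *Csf1* the median of chromosome 3 was 0.17 and that of 37 neighbors 0.50, beside 1.30 for *Csf1* in untreated *Lkb1*-/- against wild-type MEFs, and its part was likewise not tested.

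**Figure D5:**
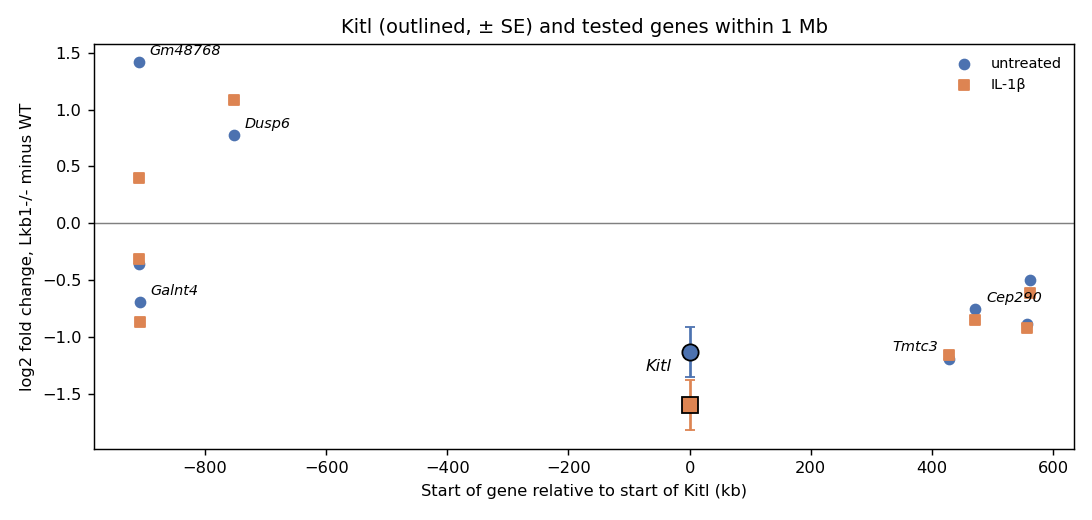
Log2 fold change of *Lkb1*-/- against wild-type MEFs (vertical axis) for *Kitl*, outlined and with its SE, and for the 8 tested genes within 1 Mb, by the distance of their starts from that of *Kitl* in kb. *Kitl* lay at -1.14 untreated and -1.60 after IL-1β, and *Tmtc3*, the lowest neighbor, at -1.19 and -1.16.

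Over the 24 libraries the genes whose log2 CPM followed each of the 4 genes most closely were found among 12514 genes, as a description of libraries that share groups, numbers and depth. For *Csf3* these were *Zc3h12a* (Pearson r = 0.967), which encodes an RNase that degrades cytokine messages, the neutrophil chemokine gene *Cxcl1* (0.919) and *Micall2* (0.911). *Csf2* was followed by *Plscr1* (0.905), *Gm5530* (0.874) and again *Cxcl1* (0.870). *Csf1* was followed by *Pop1* (0.964), *Gm12602* (0.945) and *Ergic2* (0.941), and *Kitl* by *Vps53* (0.962), *Ogdh* (0.954) and *Vezf1* (0.954). Among the 4 genes themselves *Csf2* and *Csf3* had r = 0.803, and the other pairs lay between -0.44 and 0.41.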

How the data were processed

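Paired reads of 24 libraries were trimmed with Trim Galore 0.6.0 and aligned with STAR 2.7.8a by the authors, per the labels and methods, to GRCm38 with GENCODE M24. The authors deposited the read pair counts that STAR gave for each gene, whole numbers without normalization, for the unstranded and both strand settings. The second strand setting held 95.5% to 96.0% of pairs given to genes by either strand and was used here. The authors' own strand setting is not given in the sources used here. The labels name the SMARTER kit and the paper's methods the KAPA kit with ribosomal depletion, so the library kit was not settled. Lines that name no gene held 26.7% to 34.4% of pairs and were left out. Depth on genes was 38842901 to 48594394 pairs per library, which limits *Csf2* and untreated *Csf3*, and exact intervals (95%) and the floor of 3 counts cover counting error only. Symbols and exon lengths came from GENCODE M21 on the same build, and 55230 of 55471 identifiers were matched.

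Genes were filtered with filterByExpr (minimum count 10, minimum total 15) and scaled with TMM in edgeR 4.0.16 (limma 3.58.1, R 4.3.3). All 24 libraries entered 1 model with a coefficient for each of the 8 groups, and 19 contrasts were tested by quasi-likelihood (legacy method). The SE was derived from the log2 fold change and the F statistic. Calls used a Benjamini-Hochberg FDR under 0.05 over 17522 genes. The common biological coefficient of variation was 0.129. The scripts were tested on simulated data with known fold changes. The 4 genes and the gene lists were chosen with earlier results of these data known. Genes of the pathway list could be named where called with an absolute log2 fold change above 1 or, for receptors of the 4 factors, with their level. *Adam17* and *Adam10* were named after their values were seen. The 3 genes most like each of the 4 genes were named by Pearson correlation of log2 CPM (prior count 2).

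Whether replicate numbers pair the libraries was decided from the correlation of deviations from the group means, before calls with and without the block were compared. Libraries that share a number gave 84 correlations, of 0.238 to 0.819 over the 9369 genes whose mean log2 CPM was above 3. Over all 17522 genes they were 0.0355 to 0.589, and 15 were at or under 0.1. The numbers were taken to pair the libraries on the first of these, while the labels name no shared day or batch. No 2 libraries of a group agreed within sampling noise. Alternatives were unstranded counts, DESeq2's size factors, upper quartile normalization, no filter on low counts, the newer quasi-likelihood method, DESeq2 1.42.0, the replicate block, fitting only the groups compared, and 1 library left out at a time. Leaving out all libraries numbered 1 was added after seeing the data.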

Additional observations from a re-analysis of the deposited data

Results flagged for a closer look

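With the replicate number as a block, the response of *Csf1* to IL-1β was lower in *Lkb1*-/- than in wild-type MEFs by a difference of log2 fold changes of -0.48 (SE 0.11, FDR = 0.025). It is given here because the difference between genotypes was itself tested and called in that fit. Without the block the difference was -0.49 (SE 0.21, FDR = 0.82). The wild-type pairs stood at 1.36, 1.48 and 1.54 times the untreated level and the *Lkb1*-/- pairs at 0.962, 1.03 and 1.15 times, so the ratios of the 3 pairs did not overlap. Over 21 alternatives the difference ranged from -0.57 to -0.33, and it was called in 2 of them, with the block and without a filter on low counts.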

How the results depend on the processing

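Of 1054 alternative values of single genes, 933 kept direction and call, 58 became called, 24 lost the call and 39 changed sign, all 39 of them values that were not called in either fit. The number of the 4 genes called changed by over 1.5 times as follows, and smaller changes stand beside the results or were not listed. For A2 minus *Lkb1*-/- untreated (2 of 4) it was 1 in the fit of only the groups compared and 1 to 3 without a library. For A1 minus *Lkb1*-/- after IL-1β (2) it was 4 with the newer quasi-likelihood method and 1 to 3 without a library. For A2 minus A1 untreated (1) it was 2 without a filter on low counts and with DESeq2, and 1 to 3 without a library or without all libraries numbered 1. For A2 minus wild-type untreated (2) it was 1 with unstranded counts, the newer method and only the groups compared, and 1 to 3 without a library or number 1. For A2 minus wild-type after IL-1β (0) it was 3 with no filter, 3 with the replicate block and 0 to 3 without a library. For the IL-1β response it was, in wild-type MEFs (1), 3 with no filter, 2 with DESeq2, 3 with the replicate block and 2 with only the groups compared. In A2 (2) it was 1 to 3 without a library. For *Csf2* in A1 DESeq2 gave no adjusted p, and in A2 *Csf2* did not pass the filter with only the groups compared, so these give no count. For the difference of responses of *Lkb1*-/- and wild-type MEFs (0) it was 3 with no filter and 1 with the block.

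Over all genes the calls in these comparisons of genotypes moved less. They were 5655 in A2 minus *Lkb1*-/- untreated (4564 with only the groups compared), 6437 in A1 minus *Lkb1*-/- after IL-1β (6549 with the newer method) and 5692 in A2 minus A1 untreated (5697 with no filter, 6104 with DESeq2). They were 10614 in A2 minus wild-type untreated (10711 with unstranded counts, 10680 with the newer method, 9348 with only the groups compared) and 10656 after IL-1β (10789 with no filter, 12001 with the block). In the same order of comparisons the block gave 8042, 8603, 8104, 12022 and 12001 calls.

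Signs changed as follows. *Kitl* in untreated A1 minus wild-type was 0.0052 with upper quartile normalization, and its difference of responses of A2 and *Lkb1*-/- MEFs was -0.0089 with that normalization and -0.0030 with the replicate block. The response of *Csf1* in A1 was 0.0042 with DESeq2's size factors and with DESeq2, 0.013 with upper quartile, 0.019 with no filter and 0.0079 with only the groups compared. Without a library or number 1, *Kitl* ranged from -0.11 to 0.35 in A2 minus A1 after IL-1β, -0.10 to 0.24 in untreated A2 minus wild-type and -0.11 to 0.041 in the wild-type response. *Csf3* ranged from -0.081 to 0.36 in A1 minus wild-type after IL-1β. The *Csf1* response ranged from -0.050 to 0.19 in *Lkb1*-/-, -0.13 to 0.12 in A1 and -0.19 to 0.12 in A2. Differences of responses from *Lkb1*-/- MEFs ranged for *Csf1* from -0.19 to 0.061 in A1 and -0.25 to 0.047 in A2, for *Kitl* from -0.062 to 0.20 in A1 and -0.20 to 0.28 in A2, and for *Csf3* from -1.55 to 3.99 in A2. The cause was not tested.

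Over all genes, the calls for IL-1β in wild-type, *Lkb1*-/-, A1 and A2 MEFs (396, 831, 348 and 995) became 954, 1428, 908 and 1643 with no filter, 1629, 2601, 1684 and 3133 with the replicate block, and 921, 1534, 899 and 2556 without number 1. DESeq2 called 624 in wild-type and 573 in A1, and only the groups compared 246 in A2. Without 1 library they ranged over 203 to 412, 544 to 763, 197 to 233 and 679 to 1890. The differences of responses (43 for *Lkb1*-/- minus wild-type, 5 for A1 and 0 for A2 minus *Lkb1*-/-) became 76, 3 and 1 with upper quartile, 347, 141 and 68 with no filter, 121, 12 and 12 with DESeq2, 311, 36 and 18 with the block, and 147, 10 and 6 without number 1. They were 70 for the first with only the groups compared and 3 for the second with unstranded counts, and without 1 library ranged over 23 to 57, 0 to 4 and 0 to 1. The share of higher genes among those called (67.7%, 55.8%, 60.3% and 49.5% in the same order) was 50.6%, 38.9%, 38.2% and 40.7% with the block, and 57.4% in wild-type MEFs with upper quartile normalization. With no filter it was 53.6%, 46.4%, 48.1% and 48.1%, and with DESeq2 53.7% in wild-type MEFs. It was 73.2% in A2 with only the groups compared. With number 1 left out it was 52.6%, 47.9%, 41.7% and 41.4%, and without 1 library it ranged over 59.2% to 84.1%, 52.2% to 69.7%, 60.9% to 74.9% and 40.1% to 63.1%. The block changed no call of the 4 genes other than those given beside the results. Depth limits *Csf2*, with at most 54 counts in a library.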
